A study of Mus musculus with 15 samples.

Results

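The comparison described here is GP day 3 against GP day 1 in MC3T3 cells, an osteoblast precursor line from mouse calvaria of which a single clone, 1b, was used. Its 6 arrays, of 15 in the series, were those labelled GP without ascorbic acid or BMP-2, with 3 from day 3 and 3 from day 1. The arrays were assigned by these labels and not by any measured value. The gene lists were written with earlier results of these data known. GP cultures at day 3 and at day 1 had been given beta-glycerol phosphate (GP), a phosphate donor used in mineralisation media, for that number of days. The treated cultures, used only to show where the GP cultures differed, received GP together with ascorbic acid (AA) and the bone-inducing factor BMP-2 for 3 days or 1 day. The remaining group was control medium at day 0. Each group had 3 arrays, numbered by preparation 1 to 3, and nothing in the labels says whether these were separate cultures, so p-values reflect only how far these samples varied, which could be technical.

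MC3T3 cells multiply while sparse, slow as the layer fills, and deposit and mineralise a collagen matrix when differentiation is induced, as is known of the line. A phosphate donor alone feeds mineral but is not an inducer as BMP-2 is. Mitotic genes are transcribed late in each cell cycle, so their level in a culture follows the share of cells that are cycling. As these are bulk samples, fewer cells of a kind and less RNA per cell cannot be told apart.

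Values were linear intensities per probe set, compared on the log2 scale over 7502 probe sets whose mean signal reached 24.8. With the preparation number as a block, limma called 138 of them at a Benjamini-Hochberg adjusted p under 0.05, which is 1.84% of those tested. Of these, 33 (0.44%) were higher and 105 (1.4%) lower at day 3. Taken as 1 probe set per gene, 30 of 5680 genes rose (0.528%) and 91 fell (1.6%). All 121 moved the same way in the 3 preparations, a property of 38.2% of all genes tested. The intensities of the groups did not overlap for 24 of the genes that rose and 79 of those that fell, against 12.2% of all genes tested. Both properties follow in part from the calls themselves, which were made on the same arrays. Without the block, 53 probe sets passed, all among the 138, and only 3 of them were higher. Leaving out preparation 1 or 2 at every time point left 29 or 34 calls, against 172 without preparation 3.

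Arrays were closely scaled, with a trimmed mean of 149 to 150.0 on each. The GP day 3 preparation 3 array stood apart in its 3′ to 5′ ratio of actin signal, 2.11, against 1.00 to 1.34 on the other arrays, and 14.3% of its values lay at the floor of 2.8. Without that array 132 probe sets were called, 31 of them higher and 101 lower. The labelled cell type was checked against its markers. Col1a1, Col1a2 and Sparc, the main bone matrix genes, were bright on all 6 arrays, while Alpl lay between 18.2 and 33.4 and Ibsp between 0.5 and 14.3. Runx2, Bglap and Spp1 were not analysed here.

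The largest coordinated difference was a fall of mitotic genes. Of 43 tested genes of the mitosis and spindle list, 34 fell and 0 rose, where 1.6% of all genes tested fell. The list median log2 change was -1.24, against 0.00 over all genes tested. The median was -1.51, -1.33 and -1.02 in preparations 1, 2 and 3. The summed intensity of the 44 listed genes on the array was 14594 to 15854 at GP day 3 and 25222 to 28335 at GP day 1. The day 0 cultures, at 15456 to 19004, overlapped the GP day 3 range and lay below every GP day 1 array. Without the block 23 of the genes passed, and without preparation 1 or 2 the count was 16 or 20. Leaving out any single GP array gave 30 to 33.

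Cdc20, the activator of the anaphase-promoting complex, read 297, 343 and 446 at GP day 3 in preparations 1 to 3, and 1137, 1049 and 929 at GP day 1. Every day 3 value was below every day 1 value. The log2 fold change was -1.54 ± 0.14 (SE from limma), with an adjusted p of 0.000141. Ccnb2, a mitotic cyclin, read 523, 510 and 608 at GP day 3 against 1388, 1075 and 1324 at GP day 1. It differed by -1.20 ± 0.11 on the log2 scale, with an adjusted p of 0.000141. Kif20a, a kinesin of the central spindle needed for cytokinesis, read 252, 266 and 460.0 at GP day 3 against 827, 937 and 1040 at GP day 1. Its change of -1.57 ± 0.13 had the smallest adjusted p of all, 8.9e-05. That probe set carries a suffix for sequence shared within a gene family, and another probe set for the gene, without a suffix, fell by 2.14. Stmn1, which destabilises microtubules, was the tightest of these genes at GP day 1. It read 718, 643 and 911 at GP day 3 against 1712, 1724 and 1702 at GP day 1, a log2 change of -1.19 ± 0.12 (limma adjusted p = 0.000141).

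**Figure D1:**
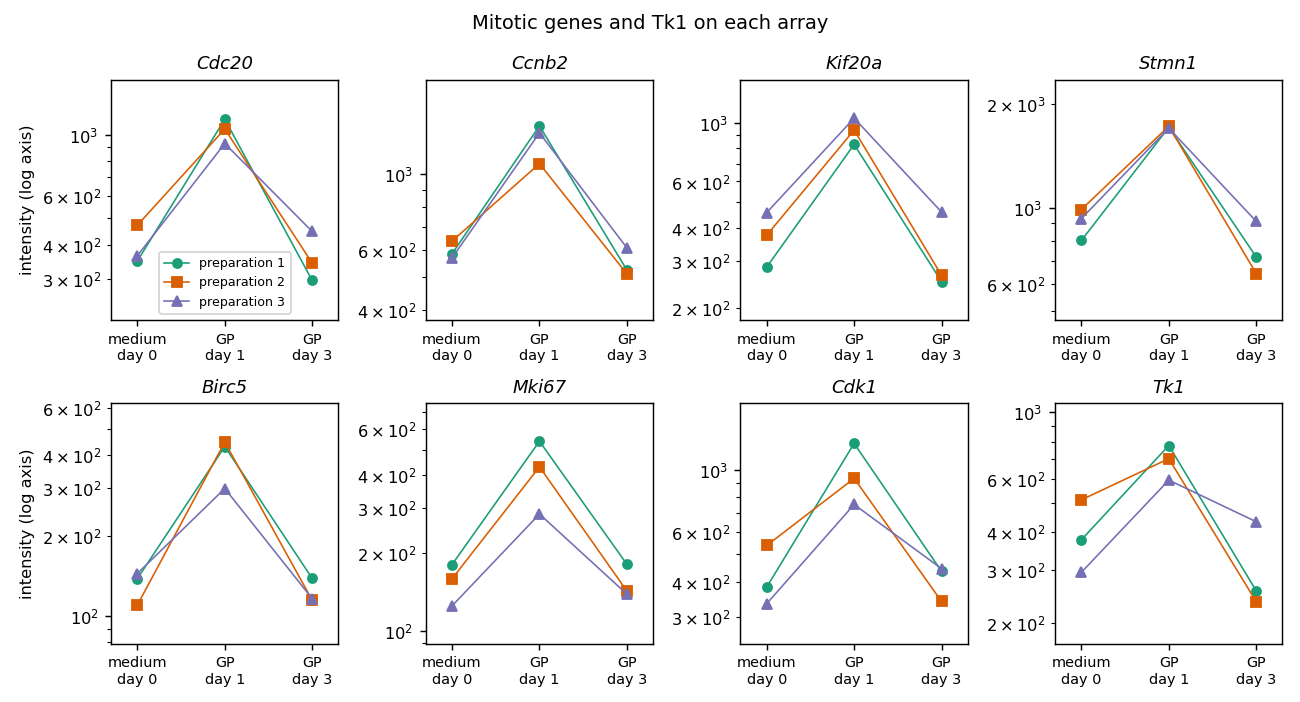
Intensity (log axis) of 7 mitotic genes and the thymidine kinase gene Tk1 on each array at medium day 0, GP day 1 and GP day 3, with a line per preparation. In every panel the 3 GP day 1 values lie above the 3 GP day 3 values, and Cdc20 reads 297 to 446 at GP day 3 against 929 to 1137 at GP day 1.

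The plot of mitotic genes by array also shows the starting cultures. All 34 mitotic genes that fell had their highest mean at GP day 1 of the 3 time points. Their median log2 ratio of mean intensities was -0.20 for GP day 3 over day 0, with a range of -0.94 to 0.04. It was 1.09 for GP day 1 over day 0. These ratios are descriptions, since genes chosen for a high day 1 and a low day 3 are more likely to peak at day 1, and day 0 differed from GP day 1 in medium as well as in time.

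Kinesin and checkpoint genes were among the largest decreases. Kifc1, a minus-end kinesin of the spindle, read 39.5, 25.9 and 160.0 at GP day 3 against 280, 258 and 373 at GP day 1. Its change was -2.45 ± 0.32 (limma adjusted p = 0.000759), with log2 differences of -2.82, -3.32 and -1.22 in preparations 1, 2 and 3. Without the block its adjusted p was 0.0957. Its probe set carries a suffix for sequence shared within a gene family. Tacc3, a spindle microtubule protein, changed by -1.93, and its brightest GP day 3 array, at 31.1, was below its dimmest GP day 1 array, at 80.1. With the floor at the 50th percentile its value was -1.05, still called. Bub1 and Ttk, kinases of the spindle checkpoint, changed by -1.66 each. Ect2, which places the cleavage furrow, changed by -1.68 and Birc5, a subunit of the chromosomal passenger complex, by -1.65. Bub1 did not pass without the block (adjusted p = 0.105).

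The 34 genes also included Mki67, Cdk1, Top2a and Ccna2. Mki67, which encodes the Ki-67 antigen of cycling cells, read 181, 143 and 139 at GP day 3 against 540, 430 and 283 at GP day 1. Its log2 change was -1.40 ± 0.17, with an adjusted p of 0.000456, although a dim probe set of the same gene, at means of 29.3 for GP day 3 and 26.4 for GP day 1, did not pass and had a positive sign. Cdk1, the kinase that drives entry into mitosis, read 435, 340 and 445 at GP day 3 against 1243, 933 and 754 at GP day 1. Its change was -1.24 ± 0.18, and those of Top2a, which untangles chromosomes, and Ccna2, the cyclin of S and G2 phases, were -1.36 and -1.06. The groups did not overlap for any of these 4 genes.

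Some mitotic genes did not pass. Pttg1, which encodes securin, read 332, 392 and 367 at GP day 3 against 333, 306 and 319 at GP day 1, a log2 value of 0.19 and the only positive one of the 43. Foxm1, a transcription factor of late cell cycle genes, had a log2 value of -0.64 with an adjusted p of 0.155. Tubb5 and Bub3 were at -0.21 and -0.35. Incenp, at -0.93, missed the threshold with an adjusted p of 0.0552. These 5, with Cdc25c, Cks1b, Ube2c and Ncaph, made up the 9 genes that were not called.

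Genes of DNA replication had smaller differences than mitotic genes. Of 41 tested, 4 fell and 0 rose, 39 had negative values, and the list median was -0.47. Over all genes tested, 1.6% fell and 50.5% had positive values. An unadjusted limma p under 0.05 was found for 23 of the 41, and for 1001 of all 7502 probe sets tested. Tk1, thymidine kinase of S phase, read 255, 235 and 433 at GP day 3 against 776, 702 and 596 at GP day 1. It changed by -1.21 ± 0.24 (limma adjusted p = 0.0157), and the log2 differences were -1.60, -1.58 and -0.46 in preparations 1, 2 and 3. Rfc5 and Rfc4, subunits of the clamp loader, changed by -0.87 and -0.91, and Rrm2, the small subunit of ribonucleotide reductase, by -0.75. The clamp Pcna and the helicase subunit Mcm2 had values of -0.45 and -0.46 that did not pass, with adjusted p-values of 0.103 and 0.258. Calls in this list depended on the settings: 1 gene passed without the block, and 0 to 2 when an array or a preparation was left out.

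Of the G1 regulators, 1 of 15 tested genes passed, where 2.13% of all genes did, and it was an inhibitor. Cdkn2d, which encodes an inhibitor of the cyclin D kinases, read 150, 166 and 194 at GP day 3 against 381, 342 and 255 at GP day 1, a change of -0.93 ± 0.16 with an adjusted p of 0.00524, or 0.245 without preparation 1. Cdkn1a, the p21 inhibitor, had a log2 value of 0.07 with a 95% interval of -0.26 to 0.40. Ccnd1, the cyclin of early G1, was at 0.39 with an interval of 0.07 to 0.71, and did not pass (adjusted p = 0.259). Its other probe set had a value of -0.10. Cdkn1b, the p27 inhibitor, was at -1.39 with an adjusted p of 0.334 and spread widely between preparations, at 6.5, 13.4 and 86.1 at GP day 3 and 26.8, 34.7 and 147 at GP day 1.

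Outside the list, the large decreases included more cell cycle genes. Cdkn3, a phosphatase that acts on cyclin-dependent kinases, changed by -2.02 ± 0.32, at 24.6, 35.6 and 46.3 for GP day 3 against 98.8, 161 and 169 for GP day 1. Aspm, a spindle pole protein, changed by -1.58, and Brca1, a DNA repair gene, by -1.54. Brca1 was dim, at 29.8, 11 and 32.7 at GP day 3 against 76.3, 45.8 and 75.6 at GP day 1. It did not pass without the block (adjusted p = 0.147) or with only the 6 GP arrays (0.0742), and with the floor at the 50th percentile its value was -0.49 (0.26). Cip2a, which encodes an inhibitor of the phosphatase PP2A, changed by -1.58. Hmgb2, a chromatin protein, changed by -1.63, with a probe set whose suffix marks relaxed design rules. 2700099C18Rik changed by -1.59. Of the 91 genes that fell, 38 were in the mitosis or replication lists, 42 in any list and 49 in none. All of the 15 largest decreases except Anxa8 and Brca1 still passed with any single GP array left out.

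**Figure D2:**
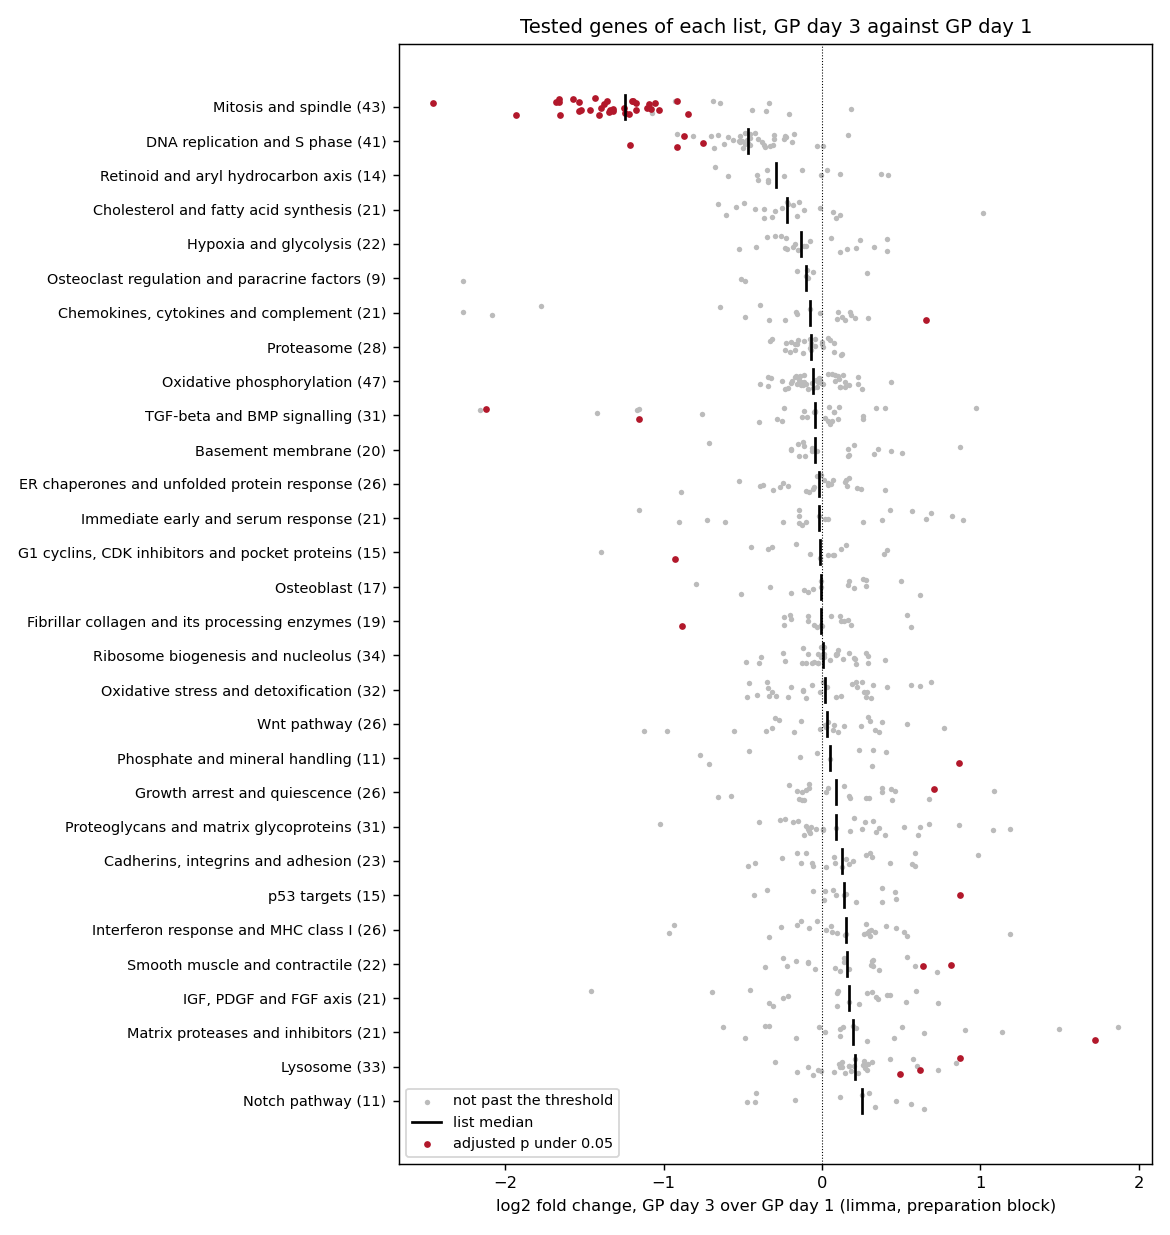
log2 fold change of GP day 3 over GP day 1 for the tested genes of each list, with the number tested in brackets. Red points passed at an adjusted p under 0.05 and black bars are list medians: the mitosis and spindle list, at a median of -1.24, lies apart from the others, and DNA replication follows at -0.47.

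Promoter sequences are shown for 4 mitotic genes, those with the smallest p that had a promoter in the table, because genes of late mitosis are known to carry CCAAT boxes and a CHR element (cell cycle genes homology region) near the start. Sequences are from RefSeq on GRCm38.p6, read 5′ to 3′ on the gene's strand from 250 bases before to 50 after the start. Capitals mark the motifs searched on either strand, CCAAT and the CHR-type letters TTTGAA or TTCGAA. Coordinates are chr4:118437294-118437593 (minus strand) for Cdc20, chr9:70421505-70421804 (minus strand) for Ccnb2, chr9:22389157-22389456 (minus strand) for Anln and chr5:30666636-30666935 (plus strand) for Cenpa.
Cdc20: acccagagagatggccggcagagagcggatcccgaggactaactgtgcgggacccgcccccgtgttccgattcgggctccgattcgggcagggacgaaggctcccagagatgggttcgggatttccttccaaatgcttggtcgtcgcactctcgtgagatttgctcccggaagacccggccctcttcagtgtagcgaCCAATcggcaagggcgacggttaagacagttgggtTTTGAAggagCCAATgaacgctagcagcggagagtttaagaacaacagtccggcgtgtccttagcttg
Ccnb2: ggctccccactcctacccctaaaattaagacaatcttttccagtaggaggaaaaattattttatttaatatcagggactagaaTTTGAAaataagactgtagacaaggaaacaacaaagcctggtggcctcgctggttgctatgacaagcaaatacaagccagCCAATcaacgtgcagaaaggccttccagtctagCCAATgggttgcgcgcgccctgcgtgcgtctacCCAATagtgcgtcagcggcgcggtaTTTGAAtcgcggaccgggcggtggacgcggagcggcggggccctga
Anln: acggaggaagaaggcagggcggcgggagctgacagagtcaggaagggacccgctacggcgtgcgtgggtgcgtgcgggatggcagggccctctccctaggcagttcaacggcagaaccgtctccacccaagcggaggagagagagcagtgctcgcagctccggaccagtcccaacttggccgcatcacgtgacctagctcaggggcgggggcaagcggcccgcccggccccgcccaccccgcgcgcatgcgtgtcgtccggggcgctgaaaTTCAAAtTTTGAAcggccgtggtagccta
Cenpa: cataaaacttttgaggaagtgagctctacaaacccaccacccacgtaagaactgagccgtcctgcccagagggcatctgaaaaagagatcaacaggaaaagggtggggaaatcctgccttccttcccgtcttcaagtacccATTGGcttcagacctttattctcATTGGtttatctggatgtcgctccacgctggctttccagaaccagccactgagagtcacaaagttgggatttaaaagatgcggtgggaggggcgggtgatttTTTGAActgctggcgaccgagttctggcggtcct
Cdc20 held 2 CCAAT boxes and 1 CHR-type match, Ccnb2 held 3 and 2, Anln held 0 and 2, and Cenpa held 2 and 1. Anln encodes anillin of the contractile ring and Cenpa the histone variant of centromeres, and they changed by -1.46 and -1.41. Of 38 genes of the mitosis and replication lists that fell, 33 had a promoter in the table, with 35 promoters in all. CCAAT was in 25 of these (71.4%), against 37.4% of all 32851 promoters of the same length. A CHR-type match was in 24 (68.6%), against 19.2%, and both were in 22 (62.9%), against 7.52%. The E2F-type letters TTTGGCG or TTTCGCG were in 1 (2.86%), against 2.37%. All 24 CHR-type matches and 24 of the 25 CCAAT matches were among the 31 promoters of mitosis genes. The 4 promoters of replication genes held 1 CCAAT match and 0 CHR-type matches. These letters are descriptions of the window and not shown sites. Promoters of listed genes that did not fall, and of genes outside the lists that fell, were not compared. The shares therefore describe cell cycle genes of the lists and do not set apart those that fell.

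Id3, an inhibitor of helix-loop-helix transcription factors and a direct target of BMP signalling, had the largest decrease of the called genes outside the cell cycle. It read 145, 115 and 159 at GP day 3 against 856, 574 and 446 at GP day 1, and 456, 351 and 363 at day 0. The GP day 3 values lay below all values of both earlier times. The log2 change from GP day 1 was -2.12 ± 0.30 with an adjusted p of 0.0017, and the call was lost without preparation 1 (highest adjusted p over the alternatives, 0.116) and without preparation 2. Id2 and Id1, of the same family, had values of -2.16 ± 0.61 and -1.42 ± 0.42 that did not pass (adjusted p = 0.108 and 0.133). Id2 read 33.6, 31.2 and 87.7 at GP day 3 against 191, 147 and 294 at GP day 1, with no overlap. Without preparation 3, both Id2 and Id1 passed, with adjusted p-values of 0.00164 and 0.00199.

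Of 31 tested genes of the TGF-beta and BMP list, 2 passed, where 2.13% of all genes tested did. The other, beside Id3, was Tgfbi, which encodes a matrix protein induced by TGF-beta. It read 193, 147 and 40.5 at GP day 3 against 389, 405 and 81.2 at GP day 1, a change of -1.16 ± 0.20 with an adjusted p of 0.00629. The groups overlapped because preparation 3 was low at both times, and the gene fell within each preparation, by 1.01, 1.46 and 1.00. Without the block its adjusted p was 0.973. Lox, the enzyme that crosslinks collagen, was the only gene of 19 collagen and collagen processing genes to pass, beside 2.13% of all genes. It read 472, 271 and 436 at GP day 3 against 977, 561 and 641 at GP day 1, a change of -0.88 ± 0.16 (limma adjusted p = 0.0111), which did not pass without the block (0.254) or without preparation 1 (0.264). Anxa8, an annexin, changed by -1.79 ± 0.40, with 229, 164 and 105 at GP day 3 and 774, 869 and 242 at GP day 1. Its adjusted p was 0.0366 with the block and 0.642 without it.

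Genes that rose were fewer, and they belonged to several kinds. The largest increases were of striated muscle troponins and of angiotensinogen. Tnnc1, the calcium-binding troponin of slow and cardiac muscle, read 201, 400.2 and 164 at GP day 3 against 30.4, 73.6 and 41.3 at GP day 1. Its change of 2.39 ± 0.50 had an adjusted p of 0.0275 and did not pass once any single GP array was left out (highest adjusted p over the alternatives, 0.325). Tnnt1, the tropomyosin-binding troponin of slow muscle, read 180, 369 and 135 at GP day 3 against 55.5, 50.9 and 52.4 at GP day 1. It changed by 1.97 ± 0.34 (limma adjusted p = 0.00584), with a probe set whose suffix marks shared sequence. Its other probe set, which was dimmer, was at 0.40 with an adjusted p of 0.662. Without the GP day 3 or GP day 1 array of preparation 2 Tnnt1 did not pass, and the highest adjusted p over the alternatives was 0.177.

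Other genes of the muscle marker list were not called. Of 13 muscle genes tested, 2 rose and 11 were not called, where 0.528% of all genes tested rose. The list median was 0.18. The summed intensity of the 26 listed genes was 1186 to 2113 at GP day 3 and 1096 to 1437 at GP day 1, ranges that overlapped. Myod1 and Myog, the regulators that define skeletal muscle, read 53 to 76.2 and 33.5 to 43.9 at GP day 3, against 43.3 to 50.7 and 23.4 to 36.6 at GP day 1. Acta1, Myf5, Myh1, Des and Mb lay under the filter.

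Agt, the precursor of angiotensin, read 419, 625 and 656 at GP day 3 against 111, 96.8 and 123 at GP day 1. Its values at day 0 were 99.0, 133 and 258, also below every GP day 3 array. The log2 change was 2.34 ± 0.39 with an adjusted p of 0.00524, and it passed in 19 of 20 alternatives, the exception being without preparation 2 (0.189). Enpep, the aminopeptidase that trims angiotensin II, had a value of 1.49 ± 0.38 that did not pass (adjusted p = 0.0719). It read 584, 672 and 530.1 at GP day 3 against 91.4, 234 and 436 at GP day 1, so that preparation 3 differed little, and its second probe set was at -0.01.

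Htra1, a secreted serine protease that cleaves matrix proteins, had the smallest adjusted p of the genes that rose. It read 844, 1111 and 1081 at GP day 3 against 194, 331 and 438 at GP day 1, a change of 1.72 ± 0.21 with an adjusted p of 0.000456. It was the only gene called of 21 for matrix proteases and their inhibitors, where 2.13% of all genes were called. Htra1 passed in all 20 alternatives. Of the 49 named genes that passed, 8 did so in every alternative: Ccnb2, Cdc20, Cip2a, Ect2, Hmgb2, Htra1, Kif20a and Stmn1.

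**Figure D3:**
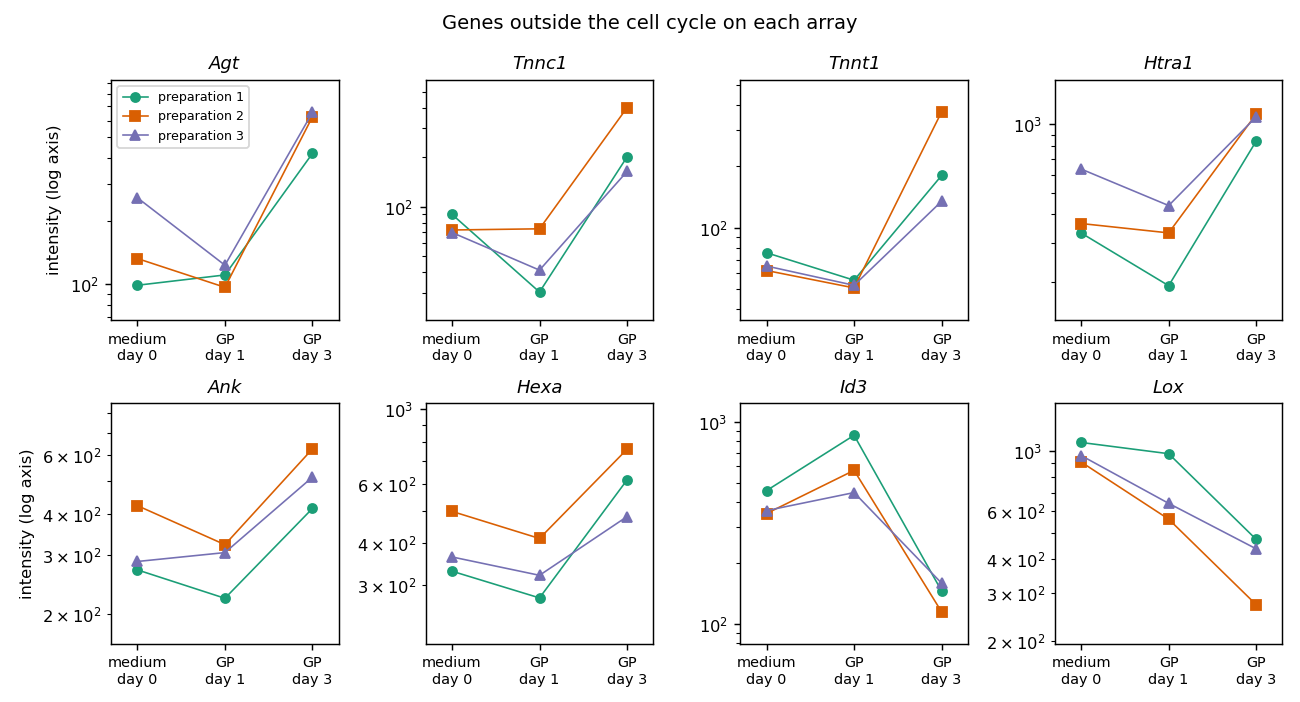
Intensity (log axis) of 8 genes outside the cell cycle on each array at medium day 0, GP day 1 and GP day 3, with a line per preparation. Agt, at 419 to 656, Htra1, Ank and Hexa are highest at GP day 3 in each preparation, while Id3 and Lox are lowest there.

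Hexa, Gaa and Atp6v0d1 rose among the lysosomal genes. Of 33 tested, 3 rose and 0 fell, where 0.528% of all genes rose. Positive values were found for 27 of the 33, against 50.5% of all genes tested, and the list median was 0.21. The list itself was not tested. Hexa, a subunit of hexosaminidase, read 617, 761 and 480 at GP day 3 against 275, 413 and 321 at GP day 1, a change of 0.87 ± 0.16 (limma adjusted p = 0.00952). Gaa, the lysosomal glucosidase that digests glycogen, changed by 0.62 ± 0.11, and Atp6v0d1, a subunit of the proton pump, by 0.49 ± 0.12 (adjusted p = 0.0482). None of these 3 passed without the block, with adjusted p-values of 0.182, 0.154 and 0.659. Hexa and Gaa passed in 14 of 20 alternatives each, and Atp6v0d1 in 4. Dpp7, a lysosomal peptidase that was not in the list, changed by 0.84. It passed in 11 of 20 alternatives, and its limma adjusted p without the block was 0.378.

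In phosphate and mineral handling, 1 of 11 tested genes rose, where 0.528% of all genes tested did. Ank, which exports pyrophosphate, an inhibitor of mineral growth, read 414, 625 and 515 at GP day 3 against 223, 323 and 306 at GP day 1. The change of 0.87 ± 0.13 had an adjusted p of 0.00188 and was 0.90, 0.95 and 0.75 in preparations 1 to 3. It did not pass without the block (0.107) or without preparation 1 or 2. Slc20a1, a phosphate importer, was at -0.71 with an adjusted p of 0.274, and Mgp, an inhibitor of calcification, at -0.14.

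Of 22 contractile genes, Smtn and Myl9 rose, where 0.528% of all genes tested did. Smtn, a smooth muscle cytoskeletal protein, read 415, 448 and 321 at GP day 3 against 235, 250.5 and 186 at GP day 1, a change of 0.82 ± 0.17. Myl9, a myosin light chain, changed by 0.64 ± 0.12. Acta2 and Tagln, the better known genes of this class, had values of 0.14 and 0.58 that did not pass. Other lists held 1 increase each: Ndrg1, a gene of growth arrest and hypoxia, at 0.71 (0.30 and not called for its other probe set), Plk2, a p53 target kinase, at 0.87, and Cx3cl1, a membrane-bound chemokine, at 0.66. These were 1 of 26 growth arrest, 1 of 15 p53 target and 1 of 21 chemokine, cytokine and complement genes tested. None of Smtn, Myl9, Ndrg1, Plk2 and Cx3cl1 passed without the block, and the highest of their adjusted p-values there was 0.973, for Cx3cl1. Of 20 alternatives, Smtn, Plk2 and Ndrg1 passed in 7 each, Cx3cl1 in 8 and Myl9 in 14.

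The remaining large increases were of unrelated genes. Ets2, a transcription factor, changed by 0.98, and Eno3, the muscle form of enolase, by 0.97. Tmem150a, a membrane protein, changed by 0.97, Fam53a by 0.90, Coprs, which binds an arginine methyltransferase, by 0.88, and AI413582 by 0.79. The probe set for Coprs carries a gene family suffix, and 2 dimmer probe sets of the gene had values of 0.49 and 0.80 that did not pass. Gas6, a ligand of TAM receptors named for growth arrest, had a larger value, 1.09 ± 0.33, that did not pass (adjusted p = 0.141). It read 1047, 1501 and 1989 at GP day 3 against 515, 749 and 842 at GP day 1, with no overlap. Of the 15 largest increases, Agt, Htra1, Tmem150a, Ank and AI413582 still passed with any single GP array left out, and the others did not.

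Bone and fibrillar matrix genes other than Lox gave no call. Of 17 osteoblast genes tested with limma, 0 passed and 3 had an unadjusted p under 0.05. There were 8 positive and 9 negative values, with a median of -0.01. Over all genes tested, 2.13% were called in either direction, so 0 of 17 is near that share and says little about the group. An unadjusted p under 0.05 was found for 1001 of all 7502 probe sets tested. Col1a1, a chain of type I collagen, averaged 8502 ± 1763 at GP day 3 and 8965 ± 1151 at GP day 1 (SD, n = 3 each), a log2 value of -0.09 with a 95% interval of -0.37 to 0.19. Col1a2, the other chain, was at -0.01 with an interval of -0.23 to 0.22. Sparc, Col3a1 and Fn1 were at -0.11, -0.05 and 0.01. For Alpl, the alkaline phosphatase that marks osteoblast differentiation, the values were 33.4, 20.6 and 20.9 at GP day 3 and 18.5, 18.2 and 23.9 at GP day 1. The interval of its log2 value, -0.79 to 1.35, was wide, as was that of Ibsp, a mineral-binding matrix protein, at -1.73 to 2.28, so that sizeable differences of these dim genes were not detectable. Col4a1, of basement membranes, was at 0.50, with an interval of 0.12 to 0.89 and an adjusted p of 0.218.

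**Figure D4:**
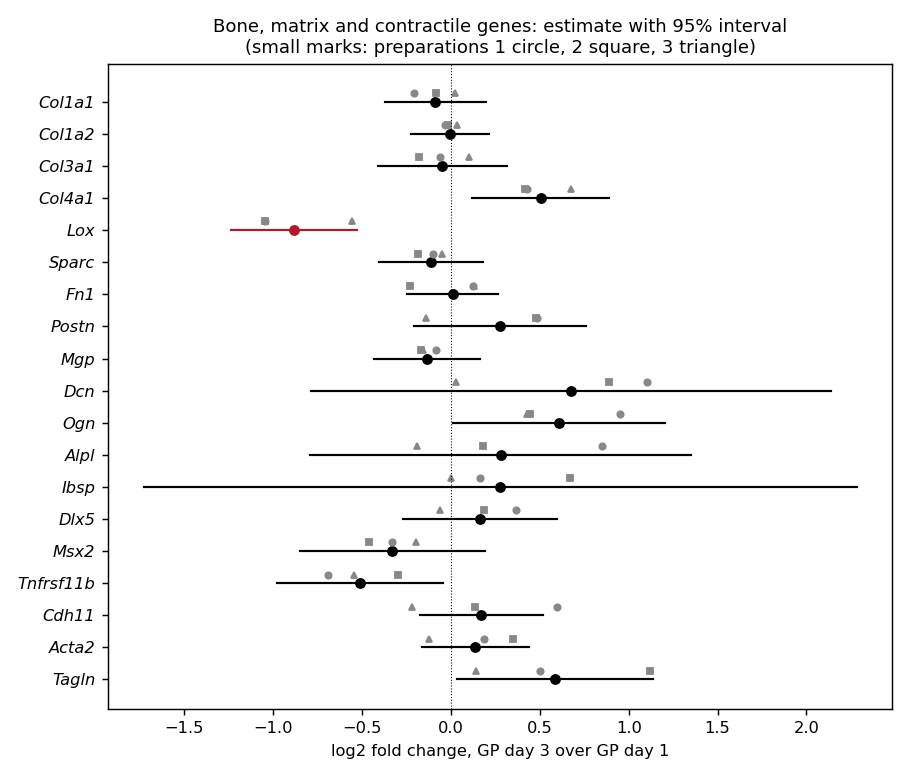
log2 fold change of GP day 3 over GP day 1 for 19 bone, matrix and contractile genes, with 95% intervals from limma and small marks for each preparation. Lox, in red, is the only gene past the threshold, and the intervals of Alpl (-0.79 to 1.35), Dcn and Ibsp are the widest.

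Dcn, a small proteoglycan, showed how far the preparations could differ. It read 174, 763 and 5916 at GP day 3 and 81.1, 412 and 5793 at GP day 1, so the range between preparations was far larger than that between days. Its log2 value was 0.67 ± 0.68 and did not pass.

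The change over the same days was set beside that of the treated cultures, which share no array with the GP cultures. Both came from 1 fit with a common estimate of the spread and of the preparation effect, so their calls are not independent. In the treated cultures, 296 probe sets passed (3.95%), and 132 genes rose (2.32%) and 106 fell (1.87%). The count was 10 without the block and 0 without preparation 2. Of the 30 genes that rose in GP cultures, 14 also rose in treated cultures, which is 46.7% of the GP genes and 10.6% of the treated ones. Of the 91 that fell, 18 also fell in treated cultures (19.8% and 17%). Among those called in the same direction in both were Tgfbi, Lox, Hexa, Gaa, Atp6v0d1, Plk2, Dpp7 and Agt. Agt changed by 1.90 in treated cultures, beside 2.34 in GP cultures. Genes chosen for passing in GP cultures are likely to lie nearer to 0 in another comparison by that choice alone. The median of the 30 genes that rose was 0.75 in GP cultures and 0.48 in treated cultures, and that of the 91 that fell was -1.13 in GP cultures and -0.41 in treated cultures.

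Mitotic genes had smaller values in the treated cultures, but no difference between the cultures passed the test. Their list median was -0.46 there, with 9 genes called, against -1.24 with 34 called in GP cultures, and 42 of the 43 values were smaller in size. The summed mitotic intensity was 21435 to 24394 at treated day 3 and 27116 to 31649 at treated day 1. The difference between the changes was tested as an interaction, treated change minus GP change, and limma called 0 of 7502 probe sets (0%). The smallest adjusted p was 0.0764, and 659 probe sets had an unadjusted p under 0.05, or 278 without the block. Kif20a and Stmn1 had interaction values of 1.05 ± 0.18 and 0.89 ± 0.16, both with that adjusted p. Kifc1 was at 2.28 ± 0.46 (0.0869). Without the GP day 3 preparation 3 array, the one with the high actin ratio, 15 probe sets passed. They included Kifc1, Kif20a, Cdc20, Stmn1 and Aurkb, but most were outside the mitosis list, such as Serpinb9, Pck2, Bcat1 and Fbln2. Aurkb and these last genes were chosen after their values were seen. Without preparation 3 at every time point, 20 probe sets passed, and Kifc1 and Kif20a were the only mitosis list genes among them.

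Other genes also had unlike values in the cultures. Tnnc1 was at 2.39 in GP cultures and -1.28 in treated cultures, with an interaction of -3.66 ± 0.71 (limma adjusted p = 0.0799). In the treated cultures it read only 5.2, 3.0 and 2.6 at day 3 against 7.5, 24.4 and 3.4 at day 1, at or near the floor of 2.8, so neither the treated value nor the size of the interaction is a reliable measure. Tnnt1 was at 1.97 and -0.04, and Htra1 at 1.72 and 0.37, with adjusted interaction p-values of 0.155 and 0.133. Tnnt1 was also dim in the treated cultures, at 7.9, 14.7 and 7.2 at day 3 against 12.4, 11.2 and 6.6 at day 1. The treated value of Tnnt1 and the size of its interaction are therefore not reliable measures either. Ank was at 0.87 in GP cultures and 0.09 in treated cultures (interaction adjusted p = 0.151). Alpl, at 0.28 in GP cultures, rose by 2.62 in treated cultures, but the interaction, 2.34 ± 0.70, did not pass (0.293).

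**Figure D5:**
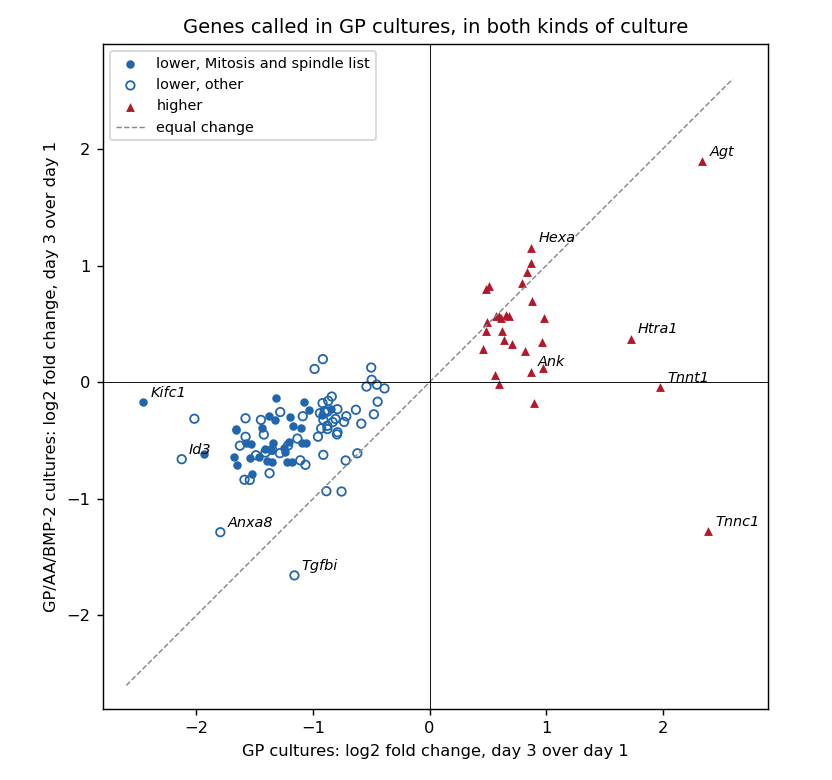
log2 fold change of day 3 over day 1 in GP cultures (x axis) and in GP/AA/BMP-2 cultures (y axis) for the 121 genes called in GP cultures, with the dashed line of equal change. Most of the genes that fell, including the 34 of the mitosis and spindle list, lie above the line, nearer to 0 in the treated cultures, and Tnnc1 has opposite signs. The genes were chosen in GP cultures, which alone makes treated values nearer to 0 likely.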

How the data were processed

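The file as deposited holds 1 intensity on a linear scale for each of 12488 probe sets and 15 arrays. The software and scaling by which the authors made them are not given in the sources used here. No detection calls were used. The 66 control probe sets were left out, values under 2.8 (the 10th percentile) were set to 2.8, log2 was taken, and probe sets with a mean under 24.8 (the 40th percentile) were left out. Differences came from limma 3.58.1 under R 4.3.3, using lmFit and a trended eBayes over all 15 arrays, with 5 group coefficients, the preparation number as a block and 8 residual degrees of freedom, and p-values were adjusted over all probe sets by Benjamini-Hochberg. The number of arrays limits the precision. Preparation numbers come from the labels. Deviations from the group means at GP day 3 and GP day 1 correlated at 0.51, 0.29 and 0.59 for the same number. Between preparations 1 and 2 the values were 0.18 and 0.17, and between preparation 3 and the others -0.51 to -0.32. Deviations within a group of 3 arrays cancel out, so positive values for the same number force some negative ones between numbers. The correlations mainly set preparation 3 apart and do not settle whether preparations 1 and 2 are paired. The block used the numbers as labelled.

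The platform annotation gave a single symbol to 10833 of 12422 non-control probe sets, several to 396 and none to 1193. Names came only from those with 1 symbol. The Entrez identifiers of 10817 matched RefSeq (GRCm38.p6), and 0 symbols changed. A gene with several probe sets is given by the brightest over all arrays. Named genes are the 15 largest increases and decreases among genes called and alike in direction in 3 preparations, the 4 smallest p among called genes of each list, and a fixed set of bone, matrix, cell cycle and signalling genes. Others are named for a promoter shown, as uncalled members of the mitosis list, as markers, or as chosen after their values were seen. Members and lists were chosen with earlier results of these data known. Lists have counts and medians and no test. The fit was run on data simulated from the same model, which checks the code and not the pairing or the values at the floor. Alternatives were the fit without the block, only the 6 GP arrays, other normalisations, floors and filters, no trend, robust estimation, array weights, and leaving out each array or preparation.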

Additional observations from a re-analysis of the deposited data

How the results depend on the processing

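Calls are from limma. In GP cultures, 138 probe sets (33 higher, 105 lower) became 53 (3 and 50) with no replicate block. They became 90 (20 higher) with no filter on mean signal, and 458 (184 and 274) with array weights. Median scaling left 20 higher. Leaving out an array or a preparation gave 29 to 172 calls, 1 to 38 higher and 27 to 134 lower. In treated cultures, 296 (159 higher, 137 lower) became 10 (6 and 4) with no replicate block and 188 (104 and 84) with no filter. Median scaling left 82 lower there, and leave-one-out fits gave 0 to 310 in all, 0 to 164 higher and 0 to 146 lower, with 0 without preparation 2. For the interaction, 0 became 1 with quantile normalization, 4 with the floor at the 50th percentile, 15 with array weights and 0 to 20 in leave-one-out fits. The 34 mitotic genes were 16 to 36 in leave-one-out fits. The 4 replication genes became 1 with no replicate block, with only the 6 GP arrays or with no mean trend, 2 with median scaling, 0 with the floor at the 50th percentile or no filter, 12 with array weights and 0 to 2 in leave-one-out fits. No named gene that was called changed sign in any alternative run. The causes were not tested. Genes near the floor have wide intervals, and 3 arrays a group limit the rest.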

Other observations

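Markers of other cell types were checked in GP cultures, and the muscle list was the only one of them with a call. The numbers called were 0 of 5 chondrocyte, 0 of 5 adipocyte, 0 of 6 macrophage and osteoclast, 0 of 2 endothelial, 0 of 3 epithelial and 0 of 7 neural and glial genes tested. Of the energy and protein synthesis and turnover lists, limma called 0 of 47 oxidative phosphorylation genes (median -0.05), 0 of 28 proteasome genes (median -0.07) and 0 of 34 ribosome biogenesis genes (median 0.01). At an unadjusted p under 0.05 there were 2 adipocyte, 3 macrophage and osteoclast, 2 neural and glial, 4 oxidative phosphorylation and 3 ribosome biogenesis genes, and 0 in the other lists named here apart from muscle. Over all probe sets tested, 1001 of 7502 had an unadjusted p under 0.05. At the adjusted threshold only 2.13% of all genes tested were called in either direction. Counts of 0 called in lists of these sizes are near that share and say little about the groups.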
